A study of Mus musculus with 28 samples.

Results

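The genes described here take up, break down, make and store glucose. They are glucose transporters, hexose kinases and the regulator of hepatic glucokinase, the enzymes of glycolysis and the enzymes that set its main control metabolite, the kinases that switch off pyruvate dehydrogenase, and enzymes of gluconeogenesis and of glycogen. The list holds 46 gene symbols, given by name and not by any measured value, and its members were found by the gene name that the array design gives each probe (Pkm under its older name Pkm2). Of the 46 genes, 45 had a probe, with 74 probes in all, and all 45 were among the 21070 genes tested. No probe carried the name Pck1, the cytosolic enzyme that makes phosphoenolpyruvate, and it was not analysed here.

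The data are 28 arrays with 2 colours from C57BL/6 mice. Each carries the cRNA of a sample in Cy3 beside a commercial mouse reference RNA in Cy5. The study compared cultures grown from adult liver cells with the tissue they came from and with unrelated tissues. The 13 groups are liver organoids in differentiation medium (DM organoid, 1 array), liver organoids in expansion medium (EM organoids, 2 arrays), duct cells sorted for the surface antigen Mic1-1c3 (2), cells sorted for Lgr5 on day 6 after carbon tetrachloride (CCl4, 2), the hepatocyte fraction of isolated liver (2), whole liver (2), liver of wild-type mice called adult liver (2), liver on day 3 (2) and on day 13 (2) after CCl4, and pancreas (2), muscle (3), brown adipose tissue (BAT, 3) and white adipose tissue (WAT, 3) of wild-type mice. CCl4 is a poison of hepatocytes, above all of those near the central veins. The organoids were grown from single cells isolated by Lgr5, a receptor for R-spondins. The labels give neither age nor sex, and they do not say which culture line each organoid array came from, so with 1 DM array the medium and the culture cannot be told apart.

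Most steps of glucose metabolism are run by several genes that encode enzymes for the same reaction with different kinetics and control. Hepatocytes take up and release glucose through a high-capacity transporter, Slc2a2, and hold liver-type isoforms such as Pklr, Gys2, Pygl and Fbp1 that suit a tissue which stores glucose after a meal and makes it during fasting. Proliferating cells and many epithelia use Slc2a1, Hk1, Hk2 and Pkm, while muscle uses Slc2a4, Eno3, Pgam2, Pygm and Fbp2. The kinases Pdk1 to Pdk4 phosphorylate pyruvate dehydrogenase and so keep pyruvate out of the mitochondrial citric acid cycle.

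All levels are log2 ratios of Cy3 over Cy5, sample over reference, after background correction and loess. A level has no meaning between genes, since probes differ, but it can be compared between samples of the same gene. Changes are differences of group means on this log2 scale with the standard error of a limma fit to all 28 arrays. A member is said to rise, fall or differ where its Benjamini-Hochberg adjusted p over all genes was under 0.05 and its change at least 1. Where no array of the lower group had a signal clearly over background, the gene has only a bound, written as at least N-fold. Bounds were taken on the Cy3 signal alone, are open to dye bias, and are not given where they exceeded the fold of the ratios. In such cases the change of the ratios is printed instead, and its size rests on signals near background in the lower group. A member that was not above background in the higher group gets no direction. The labels call all arrays but the DM array biological replicates without naming the animals, so p-values measure the spread between these samples, which may be technical in part.

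The share of probes well above background lay between 17.8 and 69.1% on the 28 arrays. It was lowest on a pancreas array (17.8%) and on both arrays of Lgr5-sorted cells (21.5 and 18.5%). The 6 hepatocyte markers had a median level of 7.98 in hepatocytes and 7.64 in whole liver, and the 5 bile duct markers a median of 2.22 in duct cells. Lgr5-sorted cells carried macrophage markers at a median of 4.16, with 3 of the 5 bile duct markers above background on neither array. Duct cells also held endothelial markers (median 4.60) and stellate cell and matrix markers (2.64), and the muscle, WAT and BAT arrays each held markers of the other tissues, given beside the results they touch.

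**Figure D1:**
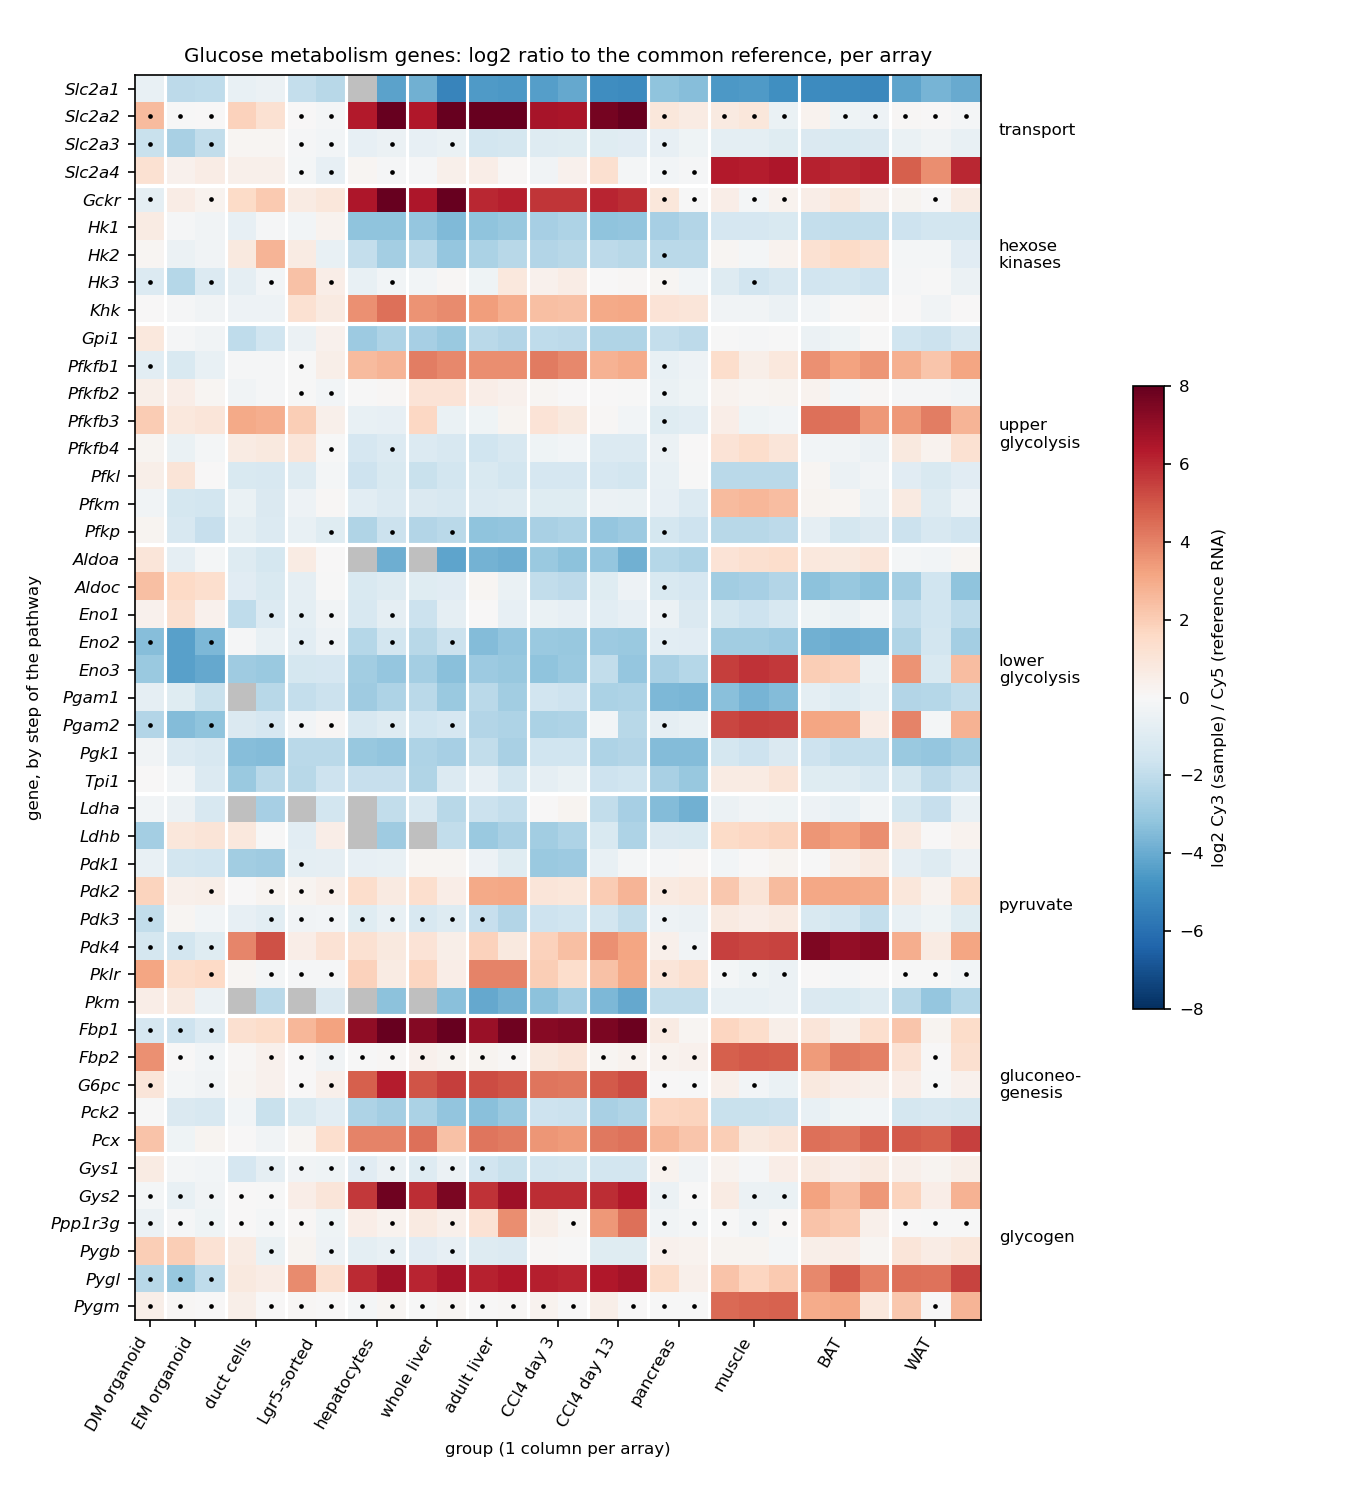
Log2 ratio of Cy3 (sample) over Cy5 (reference RNA) of the 45 measured genes, 1 column per array, with genes grouped by step of the pathway. Red is above and blue below the reference, a dot marks a Cy3 signal not well above background, and grey marks a spot left out as an outlier. Slc2a2, Gckr, Fbp1, Gys2 and Pygl are red on all whole-tissue liver and hepatocyte arrays, and in the organoids they are near 0, blue or not above background.

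Organoids in expansion medium were set against adult liver to ask how far cultured cells keep the tissue's programme. They held far less of the liver-type isoforms and more of the isoforms that other tissues use. The transporter Slc2a2, the fructose bisphosphatase Fbp1, the glycogen enzymes Gys2 and Pygl, the glucokinase regulator Gckr and the glucose-releasing phosphatase subunit G6pc all fell. Slc2a1, Hk1, Hk2, Pkm, Aldoa, Ldhb and Pygb rose. Of 45 members, 32 differed (18 higher and 14 lower), or 71.1%, where 32% of all 21070 genes tested did (14.4% higher and 17.6% lower). The median change was -0.05 over the members and -0.09 over all genes. Fewer hepatocytes in a sample and less RNA per hepatocyte cannot be told apart in such arrays. The 6 hepatocyte markers had a median of 0.01 in EM organoids and 7.25 in adult liver. On the scan day that holds an array of each group all 32 kept their sign. None of the 32 overlapped between the arrays of the groups, so these signs were fixed in advance and are no separate check. Under all 17 other settings 22 passed in the same direction.

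Among transporters, Slc2a1, the carrier of most proliferating cells, had log2 ratios of -2.09 and -2.06 in EM organoids, against -4.52 and -4.59 in adult liver. It rose by 2.48 ± 0.30 (SE, limma adjusted p = 1.3e-06). Slc2a2 stood at -0.03 and 0.01 in EM organoids, not above background, against 7.97 and 8.37 in adult liver. The arrays of the groups lay far apart for both genes, and Slc2a2 was at least 65.3-fold lower (limma adjusted p = 1.42e-10). Slc2a4, the insulin-regulated carrier of muscle and fat, changed by 0.17 ± 0.48 and did not pass.

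Of the hexose kinases, Hk1 stood at -0.08 and -0.27 in EM organoids, against -3.24 and -3.03 in adult liver, a rise of 2.96 ± 0.20 (limma adjusted p = 3.42e-10). Hk2 rose by 2.00 ± 0.47, and Hk3, a hexokinase of blood cells, fell by 1.97 on the log2 scale. Gckr, which holds glucokinase in the hepatocyte nucleus, had 0.59 and 0.31 in EM organoids, against 6.01 and 6.20 in adult liver. Khk, the kinase that starts fructose breakdown, fell to -0.12 and -0.30 in EM organoids, against 3.35 and 2.92 in adult liver. Each of the 5 genes of this step differed, and for none did the arrays overlap. Of the 3 other Hk1 probes above background, 1 also passed, at 1.14, and the others gave 0.89 and 0.86.

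At the phosphofructokinase step, Pfkl rose by 1.88 ± 0.30 and Pfkp, the isoform of platelets and many cultured cells, by 1.61 ± 0.24, while the muscle isoform Pfkm changed by -0.34 ± 0.37. The other Pfkp probes gave -0.18 and 0.37. The bifunctional enzymes Pfkfb1 to Pfkfb4 make and remove fructose 2,6-bisphosphate, the strongest activator of glycolysis. Pfkfb1, the liver isoform, fell to -1.22 and -0.62 in EM organoids, against 3.71 and 3.72 in adult liver (change -4.63 ± 0.30, limma adjusted p = 1.5e-10). Pfkfb4 rose by 1.12 ± 0.29 (0.95 without the first adult liver array and 0.92 without the second EM array, neither passing), and Pfkfb3, at 0.96 ± 0.57, did not pass. Gpi1, which converts glucose phosphate to fructose phosphate, rose by 2.05 ± 0.23, although a second probe gave -0.68 without passing.

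In lower glycolysis 5 of 9 members rose and none fell. Aldoa, the aldolase of muscle and most cells, stood at -0.72 and -0.14 in EM organoids, against -3.77 and -3.90 in adult liver, a rise of 3.40 ± 0.26 (limma adjusted p = 6.2e-09). Aldoc, the brain-type aldolase, rose by 1.66 ± 0.36. The enzymes Pgk1, Pgam1 and Eno1 rose less, by 1.13 ± 0.19, 1.09 ± 0.28 and 1.16 ± 0.37. Without the second adult liver array they gave 0.81, 0.77 and 0.83, short of the minimum change, and without the first EM array Pgam1 gave 0.67 and Eno1 0.69. Tpi1, at 0.41 ± 0.38, and the muscle isoforms Eno3 (-1.21 ± 0.97) and Pgam2 (-0.91 ± 0.91) did not pass.

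At pyruvate, Pkm stood at 0.72 and -0.48 in EM organoids, against -4.12 and -3.81 in adult liver. It was the member with the largest rise, 4.08 ± 0.34 (limma adjusted p = 5.75e-08). A second Pkm probe rose by 2.30 and the remaining one gave -0.29. Whether the probes read the M1 or the M2 splice form was not examined. Pklr, the liver and red cell isoform, had 1.40 and 1.61 in EM organoids, against 3.95 and 3.97 in adult liver, and fell by 2.45 on the log2 scale. Against whole liver, where Pklr stood at 1.74 and 0.55, its change was 0.36.

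Lactate dehydrogenase subunit Ldhb, the heart-type subunit, stood at 0.90 and 1.02 in EM organoids, against -2.97 and -2.58 in adult liver, a rise of 3.74 ± 0.41 (limma adjusted p = 6.4e-07). Ldha, the muscle-type subunit, changed by 0.94 ± 0.38 and did not pass. Of the pyruvate dehydrogenase kinases, Pdk3 rose by 2.04 ± 0.24 and Pdk2 fell by 2.63 on the log2 scale. Pdk4, a kinase induced by fasting, was not above background in EM organoids and at least 2.18-fold lower than in adult liver.

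The genes of glucose production fell together except for Pck2. Fbp1 had -1.67 and -1.11 in EM organoids, not above background, against 6.89 and 7.76 in adult liver, a change of -8.71 ± 0.67 (limma adjusted p = 1.87e-09). G6pc, the catalytic subunit that frees glucose for export, stood at -0.16 and -0.29 in EM organoids, against 5.24 and 5.05 in adult liver (change -5.37 ± 0.35, limma adjusted p = 1.74e-10). Pcx, which carboxylates pyruvate in mitochondria, fell by 4.27 on the log2 scale. Pck2, the mitochondrial form of the phosphoenolpyruvate-making enzyme, rose by 1.96 ± 0.32, with -1.17 and -1.26 in EM organoids, against -3.37 and -2.97 in adult liver. Fbp2, the muscle form of fructose bisphosphatase, was above background in neither group.

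Both glycogen enzymes of the liver fell, and the forms of other tissues, Gys1 and Pygb, rose. Glycogen synthase Gys2 was at least 98.7-fold lower and the phosphorylase Pygl at least 182-fold lower, with limma adjusted p = 7.44e-08 and 1.81e-10. Pygl stood at -3.04 and -2.03 in EM organoids, not above background, against 6.16 and 6.41 in adult liver. Pygb, the brain-type phosphorylase, reached 1.98 and 1.14 in EM organoids, against -1.04 and -1.08 in adult liver, a rise of 2.63 ± 0.30. Gys1, the muscle-type synthase, rose by 1.49 ± 0.24. Ppp1r3g, a liver subunit that directs a phosphatase to glycogen, was at least 2.09-fold lower, but its adult liver arrays differed widely (1.18 and 3.71).

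The balance of 2 isoforms was taken as the difference of their log2 ratios on the same array, and only its change between groups was tested. Of 19 balances that could be formed, 14 differed between EM organoids and adult liver. Pygl against Pygb changed by -11.45 ± 0.58 (limma adjusted p = 5.04e-12), Slc2a2 against Slc2a1 by -10.66 ± 0.59, Gys2 against Gys1 by -8.16 ± 0.62 and Pklr against Pkm by -6.53 ± 0.47. Pfkfb1 against Pfkfb3 changed by -5.59 ± 0.66 and Ldhb against Ldha by 2.80 ± 0.36. Pygl, Slc2a2 and Gys2 were not above background in EM organoids, so the sizes of their shifts rest on signals near background there. The balances of Pygl with Pygb, of Slc2a2 with Slc2a1 and of Gys2 with Gys1 moved against the liver form at each of these steps. The balance of Pfkl with Pfkm moved the other way, by 2.22 ± 0.42, toward the liver form.

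**Figure D2:**
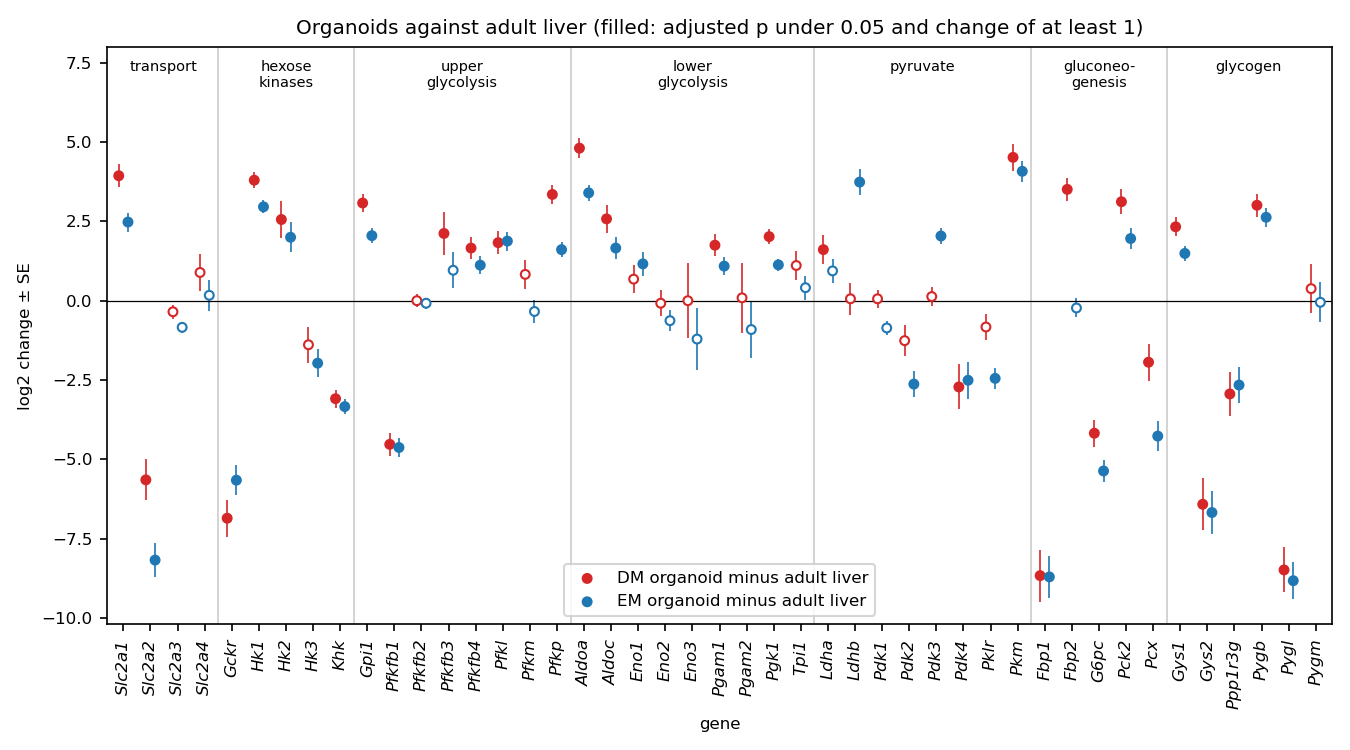
Log2 change against adult liver (vertical axis, mean difference ± SE from limma) for each gene (horizontal axis, by step), with the DM organoid in red and EM organoids in blue. Filled points passed an adjusted p of 0.05 with a change of at least 1. Fbp1 and Pygl lie lowest in both media, while Ldhb is at 3.74 in EM organoids and near 0 in the DM organoid and Fbp2 is at 3.51 in the DM organoid and near 0 in EM organoids.

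The members that rose in EM organoids differed as a set from those that fell in the base composition before their starts. RefSeq (GRCm38.p6) gave 43 of the members a promoter entry, with 64 starts in all, and CG dinucleotides were counted in the 250 bases before each start. The 18 members that rose had a median of 15 CG (4 to 29). Of these, 16 lay above the median of 6 over all 27025 genes with an entry, as did 12670 of all those genes. The 13 members with an entry that fell had a median of 6 (1 to 20), and the other 12, which include Pck1 with no probe, also had 6. Of the 13, 5 lay above the median over all genes and 5 below. Pygl and Khk, which fell, had 20 and 18, and Aldoc, which rose, had 4. The stretches were picked as examples. The stretches below show liver-type genes that fell (Pklr and G6pc) beside widely expressed genes that rose (Pkm and Pgk1), 5′ to 3′ on the plus strand, with each CG in capitals.
Pklr, chr3:89136373-89136622, 5 CG: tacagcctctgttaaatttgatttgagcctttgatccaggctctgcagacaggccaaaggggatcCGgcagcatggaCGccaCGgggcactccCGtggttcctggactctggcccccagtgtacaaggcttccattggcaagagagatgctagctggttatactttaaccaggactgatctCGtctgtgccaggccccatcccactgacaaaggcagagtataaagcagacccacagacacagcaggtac
G6pc, chr11:101367466-101367715, 2 CG: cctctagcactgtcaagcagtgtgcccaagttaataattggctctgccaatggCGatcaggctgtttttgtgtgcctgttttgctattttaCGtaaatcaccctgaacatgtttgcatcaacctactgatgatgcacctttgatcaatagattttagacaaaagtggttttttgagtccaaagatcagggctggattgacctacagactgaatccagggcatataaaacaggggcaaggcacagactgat
Pkm, chr9:59656977-59657226, 18 CG: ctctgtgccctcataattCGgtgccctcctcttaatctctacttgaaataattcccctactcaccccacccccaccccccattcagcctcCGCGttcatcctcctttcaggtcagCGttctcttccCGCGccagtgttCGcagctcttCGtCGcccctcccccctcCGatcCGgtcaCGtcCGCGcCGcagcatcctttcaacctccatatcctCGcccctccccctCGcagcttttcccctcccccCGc
Pgk1, chrX:106186850-106187099, 17 CG: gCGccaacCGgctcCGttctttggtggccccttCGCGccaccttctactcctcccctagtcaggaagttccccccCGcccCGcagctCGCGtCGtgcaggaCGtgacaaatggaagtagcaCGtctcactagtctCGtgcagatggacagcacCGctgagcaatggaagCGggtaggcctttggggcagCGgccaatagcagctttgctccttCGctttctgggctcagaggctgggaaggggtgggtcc

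Short motifs were searched in the same windows on both strands as plain letters. TATAAA was found before 3 of 19 starts of members that fell and 0 of 25 starts of members that rose, against 12.4% of all 32851 starts. GTTAAT, part of the site that HNF1 factors prefer, was found before 4 of 19 and 0 of 25, against 6.43% of all starts. CACGTG was found before 3 of 19 and 0 of 25, against 6.02%, and ACGTG, which is part of it and is also read by hypoxia-inducible factors, before 6 of 19 and 9 of 25, against 16.6%. Before the 20 starts of members that were not called, ACGTG was found 9 times, CACGTG 5 times, and TATAAA and GTTAAT 1 time each. That GTTAAT lies before Pck1, which had no probe and was not tested. These are matches of letters in a window and not sites shown to be used.

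Differentiation medium was compared with expansion medium to ask what the change of medium did. Those that differed lay in the transport, glycolytic, pyruvate and gluconeogenic steps. Of 45 members, 10 differed (8 higher and 2 lower), or 22.2%, where 10.3% of all genes did (6.25% higher and 4.02% lower). Slc2a2, among the 8, was above background in neither medium and has no direction here. Ldhb fell in the DM organoid, and Fbp2, Pcx, Pfkp, Pklr, Slc2a1, Aldoa and Gpi1 rose. Pdk3 fell as well. The DM group is 1 array, and its change is judged against the spread within the other groups. Fbp2, Ldhb and Pdk3 passed in the same direction under all 14 other settings. On the slide that holds both media all 10 kept their sign, which was fixed in advance, since none of them overlapped between the media.

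Fbp2, which is best known in muscle, reached 3.66 on the DM array, against 0.03 and -0.19 in EM organoids, where it was not above background. It was at least 4.32-fold higher in the DM organoid (limma adjusted p = 5.97e-07). The 5 muscle markers had a median of -0.01 on the DM array, with all 5 not above background. Fbp1, the liver form, stayed not above background at -1.35 in the DM organoid, against -1.67 and -1.11 in EM organoids. Fbp2 was also at least 6.67-fold higher in the DM organoid than in adult liver.

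Ldhb dropped to -2.72 in the DM organoid, against 0.90 and 1.02 in EM organoids, a change of -3.68 ± 0.51 (limma adjusted p = 6.82e-05). That is close to the adult liver arrays at -2.97 and -2.58, and the DM change against adult liver was 0.06 ± 0.51. Ldha changed by 0.67 ± 0.46 in the DM organoid against EM organoids and did not pass, while a second Ldha probe rose by 1.91 ± 0.39 (limma adjusted p = 0.00276). The Ldhb to Ldha balance fell by 4.35 ± 0.45 on the log2 scale between the media (limma adjusted p = 5.82e-06).

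Pklr reached 3.13 in the DM organoid, against 1.40 and 1.61 in EM organoids, a rise of 1.62 ± 0.42 (limma adjusted p = 0.0135). Pcx stood at 2.26 in the DM organoid, against -0.33 and 0.19 in EM organoids, a rise of 2.33 ± 0.59 (limma adjusted p = 0.0118). Both lie between the EM organoids and adult liver. Without the first EM array Pklr gave 1.52 and Pcx 2.07, and neither passed. G6pc changed by 1.20 ± 0.43 without passing, and its DM signal was not above background. Pygl, Gys2 and Gckr were not above background on the DM array, so only a bound can be given for them there.

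Slc2a1 rose further in the DM organoid, to -0.61, against -2.09 and -2.06 in EM organoids (1.46 ± 0.37, limma adjusted p = 0.0113). Pfkp rose by 1.75 ± 0.30 and Aldoa by 1.41 ± 0.32 (1.12 without the first EM array, not passing). For all 3 genes the DM array lay farther from adult liver than the EM arrays did. Gpi1 rose by 1.03 ± 0.28 against EM organoids, but gave 0.92 without the second EM array where it did not pass. Pdk3 was not above background in the DM organoid and was at least 1.18-fold lower. Of 19 isoform balances 3 differed: Ldhb with Ldha, Pfkl with Pfkp (-1.80 ± 0.39) and Fbp2 with Fbp1 (3.69 ± 0.80), the last with Fbp1 below background in both media. Against adult liver, the DM organoid differed in 29 of 45 members (18 higher and 11 lower), where 28.3% of all genes did (13.9% higher and 14.4% lower), and in 13 of 19 balances. Pklr did not pass against adult liver (-0.83 ± 0.42) and gave 1.98 against whole liver.

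Of the hepatocyte markers, Apoa1 (4.19) and Ttr (3.85) were above background on the DM array and the other 4 of the 6 were not. On the EM arrays Apoa1 averaged 0.32 and Ttr 1.07. The proliferation markers had a median of -1.20 in the DM organoid and -0.76 in EM organoids. The part of these in the changes above was not tested.

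Sorted duct cells were compared with hepatocytes, the other epithelial cell of the liver. Duct cells held more Slc2a1, Hk2, Hk1, Pfkfb3 and Pdk4 and less of the glucose-producing genes Fbp1, G6pc and Pcx and the glycogen genes Gys2 and Pygl. Of 45 members, 22 differed (11 higher and 11 lower), or 48.9%, where 23.4% of all genes did (11.9% higher and 11.5% lower). Those with a value, 19 of 22 on the first shared slide and 22 on the other, kept their sign on each. None of the 22 overlapped between the groups, so these signs were fixed in advance. Under all 16 other settings 14 passed. Hk2 was at 0.77 and 2.73 in duct cells, against -1.90 and -2.71 in hepatocytes, a rise of 4.05 ± 0.47 (limma adjusted p = 7.97e-07). Slc2a1 had -0.58 and -0.49 in duct cells, against -4.31 on the only hepatocyte array with a usable spot (3.78 ± 0.37, limma adjusted p = 1.07e-07). Pfkfb3, an inducible isoform with high kinase activity, stood at 3.05 and 2.88 in duct cells, against -0.61 and -0.63 in hepatocytes. The other probes of Hk1 (0.13 to 0.42) and of Pfkfb3 (0.17 and 0.29) did not pass.

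Pdk4 had 3.89 and 5.12 in duct cells, against 1.24 and 0.78 in hepatocytes, a rise of 3.49 ± 0.58 (limma adjusted p = 7.06e-05). Pdk1, a kinase induced by hypoxia, ran the other way, with -2.77 and -2.84 in duct cells, against -0.66 and -0.62 in hepatocytes (-2.17 ± 0.23). Ldhb rose by 3.27 ± 0.51 against 1 usable hepatocyte array. Pkm changed by 1.12 ± 0.48 and did not pass, with 1 usable array in each group, and the other Pkm probes gave 0.24 and 0.13.

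Among the falls, Fbp1 stood at 1.27 and 1.45 in duct cells, against 7.11 and 9.34 in hepatocytes (-6.86 ± 0.67, limma adjusted p = 7.76e-08). Gys2 changed by -6.70 ± 0.67 (limma adjusted p = 1.02e-07) and was not above background in duct cells, and G6pc fell to 0.14 and 0.33 there, against 4.75 and 6.30 in hepatocytes. Slc2a2, Pygl, Gckr, Khk, Pcx and Pfkfb1 also fell, by 2.74 to 5.76 on the log2 scale. A second Pygl probe gave 0.01. The duct cells held endothelial markers at a median of 4.60, against 0.44 in hepatocytes, and stellate and matrix markers at 2.64, against -3.06 in hepatocytes. Their part in the rises was not tested. Of 19 balances 15 differed, among them Slc2a2 with Slc2a1 (-10.49 ± 0.73) and Pdk4 with Pdk2 (4.43 ± 0.53).

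EM organoids were then set against the sorted duct cells. The bile duct markers had a median of 3.10 in EM organoids and 2.22 in duct cells. Organoids had more Aldoc, Pgk1, Eno1 and Ldha, which act between fructose bisphosphate and lactate, and less Pdk4, Eno2, Slc2a3 and Slc2a1. Slc2a1 stood at -2.09 and -2.06 in EM organoids, against -0.58 and -0.49 in duct cells. Of 45 members, 23 differed (11 higher and 12 lower), or 51.1%, where 26.5% of all genes did (12.4% higher and 14.2% lower). Under all 16 other settings 11 passed in the same direction, namely Aldoc, Eno1, Eno2, Pgk1, Pfkl, Fbp1, Pygl, Pdk1, Pdk4, Slc2a1 and Slc2a3. Ldha was not among them. No slide or scan day holds both groups. Pgk1 stood at -1.08 and -1.27 in EM organoids, against -3.41 and -3.49 in duct cells, a rise of 2.27 ± 0.19 (limma adjusted p = 2.24e-08). Eno1 rose by 2.38 ± 0.37 and Aldoc by 2.53 ± 0.36. Ldha rose by 1.81 ± 0.46 against 1 usable duct array, and a second Ldha probe gave 0.51 ± 0.32.

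Pdk4 was not above background in EM organoids (-1.47 and -0.95), against 3.89 and 5.12 in duct cells, and was at least 38-fold lower (limma adjusted p = 2.23e-07). Eno2, the neuronal enolase, fell by 3.61 on the log2 scale and Slc2a3, a high-affinity carrier of neurons and blood cells, by 2.44. Hk2 fell by 2.13, but by 1.15 without the second duct array, where it did not pass. Pfkfb3 fell by 2.07, although the other Pfkfb3 probes gave 0.15 and -0.14. Probes disagreed for Pkm, where the main probe rose by 2.25, a second by 1.47 while the remaining one fell by 2.10 on the log2 scale, and for Tpi1, where the main probe rose by 1.91 and a second fell by 4.14. No direction is given for these 2 genes. Endothelial markers had a median of -0.36 in EM organoids and 4.60 in duct cells, and their part in the falls was not tested.

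**Figure D3:**
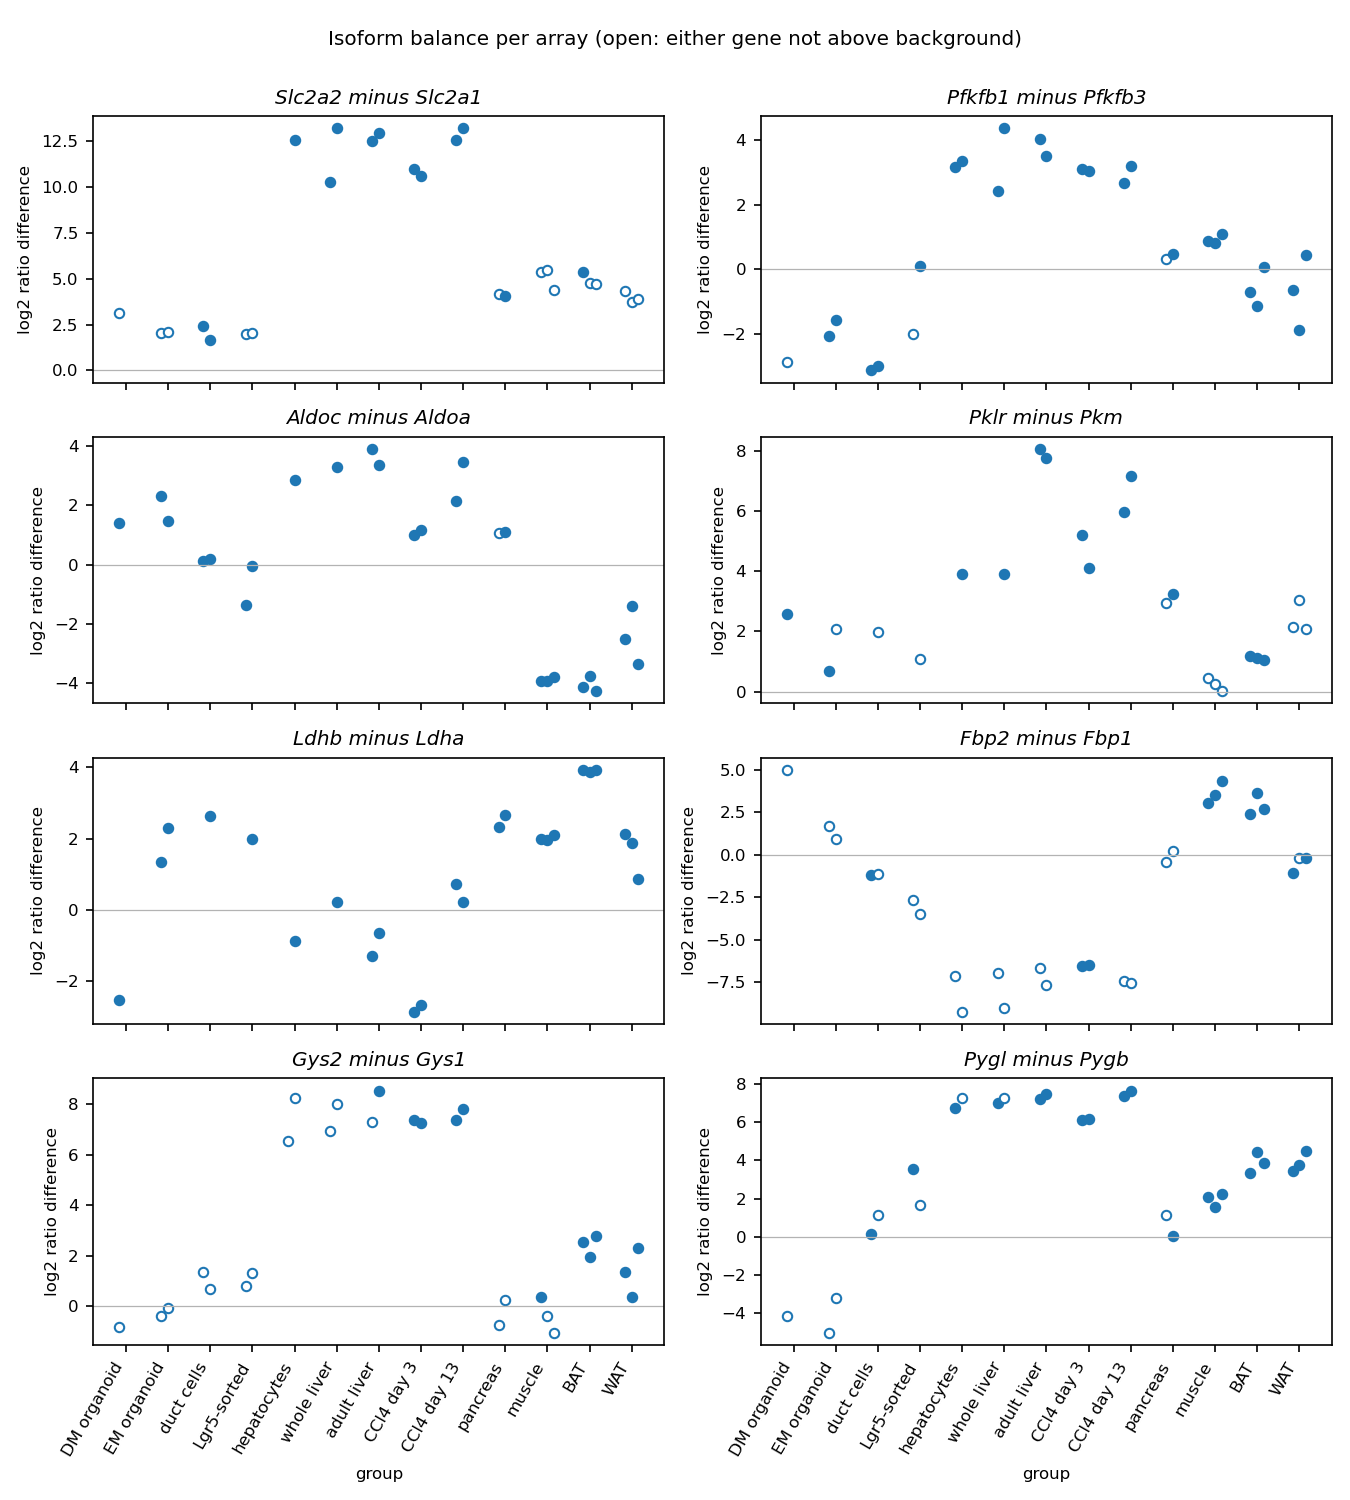
Isoform balance on each array, as the difference of the log2 ratios of 2 isoforms (vertical axis), for 8 pairs across the 13 groups (horizontal axis). Open points have at least 1 of the 2 genes not well above background. Slc2a2 minus Slc2a1 lies above 10 on all liver tissue and hepatocyte arrays with a value and below 6 on all others, and Ldhb minus Ldha is lowest at day 3 after CCl4 and in the DM organoid.

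Lgr5-sorted cells, taken on day 6 after CCl4, were compared with undamaged whole liver. Cell type, sorting and CCl4 cannot be told apart in this comparison. The liver-type genes fell, and this held on all settings tried for Slc2a2, Gckr, Gys2, Fbp1, G6pc, Pfkfb1 and Khk. Of 45 members, 25 differed (14 higher and 11 lower), or 55.6%, where 21.4% of all genes did (11.8% higher and 9.55% lower). On 1 shared slide the 22 with a value kept their sign, and on the other all 25 did. None of the 25 overlapped between the groups, so these signs were fixed in advance. Among the 14, Eno2 was not above background in Lgr5-sorted cells and has no direction. Slc2a2 stood at 0.06 and -0.16 in Lgr5-sorted cells, not above background, against 6.42 and 7.94 in whole liver, at least 52.9-fold lower (limma adjusted p = 1.63e-09). Gckr had 0.65 and 0.91 in Lgr5-sorted cells, against 6.49 and 8.01 in whole liver. Fbp1 kept some signal, with 2.66 and 3.21 in Lgr5-sorted cells, against 7.32 and 9.22 in whole liver.

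Among the rises, 8 turned sign when Cy3 was used without the Cy5 channel. Hk1 stood at -0.23 and 0.27 in Lgr5-sorted cells, against -3.08 and -3.53 in whole liver (3.33 ± 0.20). Aldoa, with 1 usable whole liver array, had a ratio of 4.53 ± 0.32, Gpi1 of 2.76 ± 0.23 and Slc2a1 of 2.5 ± 0.30 over whole liver. With Cy3 alone, scaled per array, Aldoa gave -0.34, Gpi1 -1.58 and Slc2a1 -0.63, and Ldhb, Pck2, Pkm, Pfkl and Pfkm also turned sign. The Lgr5-sorted arrays had the fewest probes above background of all liver arrays, and their macrophage markers had a median of 4.16, against 0.37 in whole liver. Hk3, a hexokinase of myeloid cells, stood at 2.35 and 0.50 in Lgr5-sorted cells, against -0.25 and 0.07 in whole liver, and the part of such cells was not tested. Hk3 changed by 1.51 ± 0.45, and gave 0.59 without the first Lgr5-sorted array and 1.35 without the first whole liver array, passing in neither.

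Isolated hepatocytes differed little from whole liver. Of 45 members, 2 differed, both lower, where 0.797% of all genes did (0.422% higher and 0.375% lower), and no isoform balance passed. Pfkfb1 stood at 2.55 and 2.72 in hepatocytes, against 4.09 and 3.82 in whole liver (-1.32 ± 0.30, limma adjusted p = 0.0376). Pfkfb2, the heart-type isoform, had -0.01 and 0.11 in hepatocytes, against 1.07 and 1.08 in whole liver (-1.02 ± 0.17, limma adjusted p = 0.00383). Both are isoforms of the same bifunctional enzyme, and neither passed under all 16 other settings. Without any 1 of the 4 arrays Pfkfb1 did not pass (-1.19 to -1.46), nor did Pfkfb2 without the first hepatocyte array (-0.96). Slc2a2, Fbp1, Gys2 and Pygl changed by 0.11, -0.05, -0.02 and -0.02.

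The whole liver arrays and the adult liver arrays are both undamaged livers, and 5 of 45 members differed between them by at least 1, without overlap and without a test. No such count was made over all genes, so whether 5 of 45 is many cannot be told. Pklr averaged 3.96 in adult liver and 1.15 in whole liver. Pdk2 averaged 3.07 in adult liver and 0.94 in whole liver, and Ppp1r3g 2.44 in adult liver and 0.55 in whole liver. Eno2 averaged -3.33 in adult liver and -1.96 in whole liver, and Gckr 6.10 in adult liver and 7.25 in whole liver. The groups lay on different slides and scan days, and tissue and slide cannot be told apart. Against whole liver, 26 of the 32 members that differed in EM organoids passed in the same direction, all but Gys1, Pdk2, Pfkfb4, Pfkp, Pklr and Ppp1r3g.

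Liver on day 3 after CCl4 was compared with the 4 arrays of undamaged liver, whole and adult liver pooled. Lactate dehydrogenase Ldha, Pck2 and Pfkfb4 rose, and Pdk1, Aldoc, Pdk2 and Khk fell. Of 45 members, 7 differed, or 15.6%, where 6.97% of all genes did (4.95% higher and 2.02% lower). Ldha stood at 0.05 and 0.22 on day 3, against -1.31 and -2.23 in whole liver and -1.69 and -1.93 in adult liver, a rise of 1.93 ± 0.33 (limma adjusted p = 0.000594). Pdk1 fell to -2.95 and -2.90 on day 3, against 0.13 and 0.16 in whole liver and -0.40 and -0.95 in adult liver (-2.66 ± 0.20, limma adjusted p = 3.18e-08). No undamaged array overlapped day 3 for either gene.

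Pck2 had -1.64 and -1.72 on day 3, against -2.53 and -3.13 in whole liver and -3.37 and -2.97 in adult liver (1.32 ± 0.28, limma adjusted p = 0.00258). Aldoc fell by 1.48 on the log2 scale, Khk by 1.02 and Pdk2 by 1.06. Pdk2 overlapped, with 0.96 and 0.93 on day 3 inside the whole liver range of 0.52 to 1.36, and it gave 0.01 against whole liver alone. Leaving out 1 array ended the call for Pdk2 in 5 of 6 cases, for Pfkfb4 in 4 (0.95 to 1.13) and for Khk in 3 (-0.91 to -0.98). The gluconeogenic and glycogen genes Fbp1, Gys2, Pygl and Pcx changed by -0.16 to -0.59 and did not pass, and G6pc, at -0.98 ± 0.30, stayed short of the minimum change. Of 19 balances 4 differed, with Ldhb to Ldha at -2.39 ± 0.34, Aldoc to Aldoa at -2.39 ± 0.48, Pdk1 to Pdk2 at -1.60 ± 0.34 and Pdk4 to Pdk2 at 2.14 ± 0.46. The Pdk1 to Pdk2 balance lay at -3.91 and -3.83 on day 3, inside the adult liver range of -4.07 to -3.42, and gave -0.13 against adult liver alone and -3.08 against whole liver alone. Without the second day 3 array Pdk4 to Pdk2 gave 1.86 and did not pass, nor did it against whole liver alone (1.34). The proliferation markers had a median of -0.60 on day 3, against -4.00 in whole liver and -4.12 in adult liver. The stellate and matrix markers had -0.12 on day 3, against -2.0 in whole liver and -2.36 in adult liver, and the part of either in the changes was not tested. All CCl4 arrays lay on 1 slide with no undamaged liver, so slide and treatment cannot be told apart.

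Day 13 differed from day 3 by lower Ldha and higher Pdk1, Aldoc, Pdk2 and Ppp1r3g. Of 45 members, 7 differed between day 13 and day 3, where 5.66% of all genes did (2.13% higher and 3.53% lower). Ldha fell to -1.94 and -2.68 on day 13, against 0.05 and 0.22 on day 3 (-2.45 ± 0.38, limma adjusted p = 0.000366). Pdk1 rose to -0.60 and -0.16 on day 13, against -2.95 and -2.90 on day 3 (2.54 ± 0.23, limma adjusted p = 4.83e-07). These 4 arrays share a slide. The largest rise was that of Ppp1r3g, with 3.49 and 4.43 on day 13, against 0.44 and 0.15 on day 3 (3.66 ± 0.57, limma adjusted p = 0.000221). It was above background on 1 of the 2 day 3 arrays. Undamaged liver itself ranged widely for Ppp1r3g, from 0.40 to 0.70 in whole liver, overlapping day 3, and from 1.18 to 3.71 in adult liver, overlapping day 13.

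Aldoc and Pdk2 rose on day 13 against day 3, by 1.37 ± 0.36 and 1.42 ± 0.40, and Pygb and Pfkfb1 fell by 1.00 and 1.12 on the log2 scale. Pygb and Pfkfb1 did not pass without any 1 of the 4 arrays, and Aldoc and Pdk2 passed only without the first day 13 array (1.07 to 1.42 and 1.09 to 1.43 without each of the others). Pfkfb1 had 2.80 and 2.96 on day 13, lower than on day 3 (4.18 and 3.82), adult liver (3.71 and 3.72) or whole liver (4.09 and 3.82). Of 19 balances 4 rose, with Ldhb to Ldha at 3.24 ± 0.36, Slc2a2 to Slc2a1 at 2.12 ± 0.59, Pklr to Pkm at 1.92 ± 0.47 and Aldoc to Aldoa at 1.73 ± 0.51. Of these, Ldhb to Ldha passed without each array in turn, while Slc2a2 to Slc2a1 (1.80 to 2.43) passed in no such case. Pklr to Pkm (1.32 and 1.37) ended without the second day 13 or the second day 3 array, and Aldoc to Aldoa passed only without the first day 13 array. The comparison of day 13 with day 3 and that of day 3 with undamaged liver share the day 3 arrays, so opposite signs between them are not independent.

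**Figure D4:**
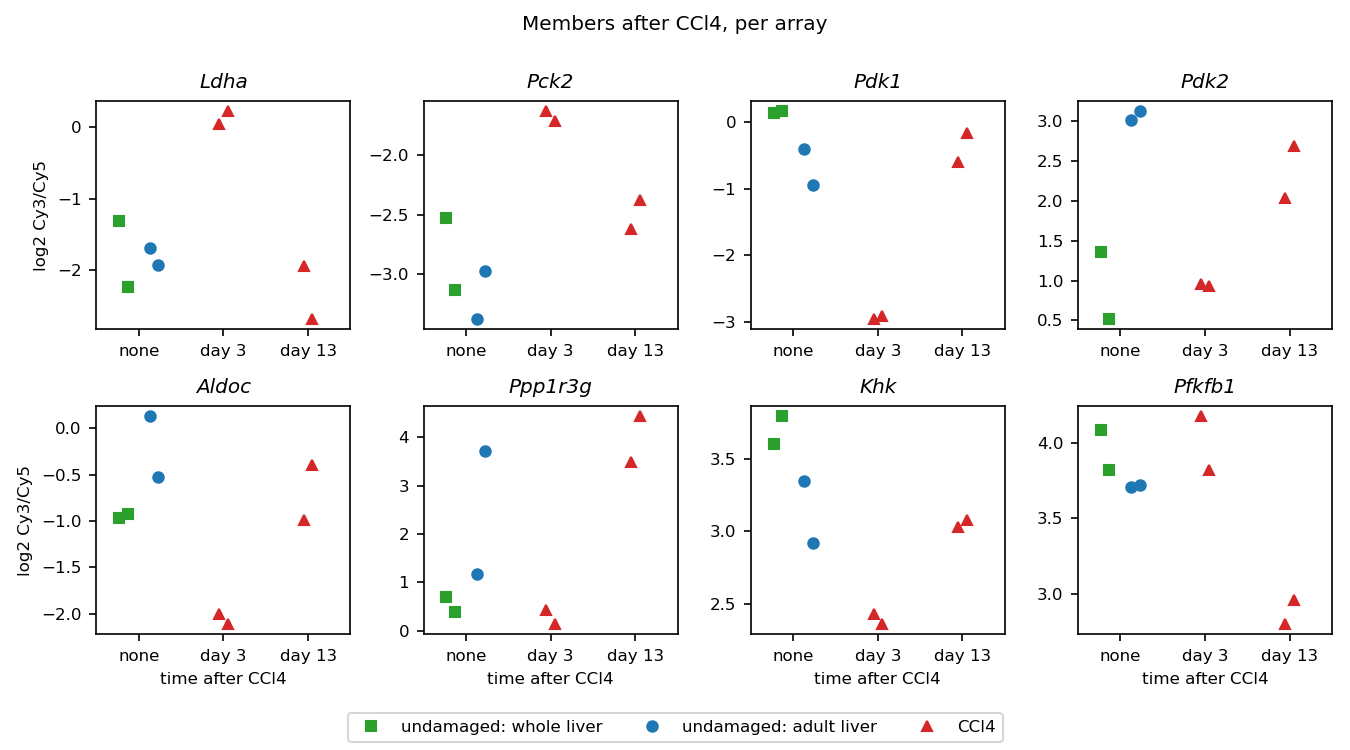
Log2 ratio per array (vertical axis) of 8 genes in undamaged liver (green squares, whole liver, and blue circles, adult liver) and on days 3 and 13 after CCl4 (red triangles). Ldha and Pck2 are highest and Pdk1 and Aldoc lowest on day 3, while Pdk2, Ppp1r3g and Khk also show how far the 2 undamaged groups lie apart.

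Adult liver was set against the other adult tissues, 4 comparisons that share the same 2 liver arrays. Liver held the liver-type isoforms, and muscle and fat held Slc2a4, Aldoa and Ldhb. Muscle also held the muscle-type enolase Eno3 and mutase Pgam2. In each fat group these 2 were lowest on the array with the least of the muscle markers. On the WAT array with a marker median of 0.90 they stood at -1.23 and -0.18. The part of mixed tissue was not tested. Of 45 members, 36 differed from muscle (16 higher in liver and 20 lower), 29 from WAT (12 and 17), 33 from BAT (10 and 23) and 29 from pancreas (17 and 12). The shares of all genes were 35.7% for muscle (15.9% higher in liver and 19.8% lower), 27.9% for WAT (13.4% and 14.5%), 29.1% for BAT (13.3% and 15.8%) and 29% for pancreas (12.6% and 16.3%). Higher in adult liver in all 4 were Slc2a2, Gckr, Khk, Pklr, Fbp1, G6pc, Gys2, Pygl and Aldoc. In whole liver, the other undamaged group, Pklr averaged 1.15 and Aldoc -0.95, close to 1.12 and -1.30 in pancreas. Pygl did not pass against WAT without either liver array or without the first or the second WAT array (1.39 to 1.70), nor Aldoc against pancreas without the first liver array (0.76) or either pancreas array (1.16 and 1.03). Lower in adult liver in all 4 were Aldoa, Ldhb, Pkm, Pck2, Gys1, Pygb and Pfkfb4. Under all 18 other settings 24 of 36 members passed in the same direction against muscle, 18 of 29 against WAT and 22 of 33 against BAT. Against pancreas 11 of 29 did so under all 17 other settings. Of the genes lower in all 4, only Pck2 was among those 11, and Aldoa against pancreas turned sign with Cy3 alone. Pfkfb4 fell short without the first liver array against BAT (-0.96) and without the second pancreas array (-0.99). Whole liver averages fell short of the minimum change for Gys1 (-0.75) against pancreas (0.01) and muscle (0.24). They did so for Pfkfb4 (-1.19) against BAT (-0.33) and pancreas (-0.2), and for Pygb against muscle (-0.79 and 0.07). Pkm against WAT (-3.36 and -2.53) and Ldhb against pancreas (-2 and -1.17) also fell short, each with 1 usable whole liver array.

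Slc2a4 set muscle and fat apart from liver, with 0.53 and 0.08 in adult liver, against 6.34, 6.27 and 6.47 in muscle, 6.14, 6.03 and 6.13 in BAT and 4.78, 3.72 and 6.00 in WAT. The change was -6.06 ± 0.44 against muscle, -5.80 ± 0.44 against BAT and -4.53 ± 0.44 against WAT. Slc2a2 stood at 7.97 and 8.37 in adult liver and was at most 0.92 in muscle, BAT, WAT and pancreas, above background on 2 of those 11 arrays. Pancreas arrays, whose islet cells also use Slc2a2, had 0.92 and 0.67.

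Of muscle isoforms, Eno3 stood at -2.92 and -3.06 in adult liver, against 5.54, 5.75 and 5.64 in muscle (-8.64 ± 0.88, limma adjusted p = 6.5e-08). Pgam2 changed by -7.88 ± 0.83, Pfkm by -3.64 ± 0.34 and Aldoa by -5.10 ± 0.24 against muscle. Fbp2 was at least 12.7-fold lower in liver than in muscle. Pygm, the muscle phosphorylase that fuels contraction, changed by -4.53 ± 0.58 and was not above background in liver. The balance of Eno3 with Eno1 changed by -9.77 ± 1.03, Pgam2 with Pgam1 by -8.90 ± 0.90 and Pfkl with Pfkm by 4.44 ± 0.39. Of 19 balances, 18 differed from muscle, 17 from WAT, 16 from BAT and 13 from pancreas.

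Pancreas stood apart by Pck2, with -3.37 and -2.97 in adult liver, against 1.71 and 1.80 in pancreas (-4.93 ± 0.32, limma adjusted p = 2e-10). It was the highest Pck2 level of all groups. Ldha was lowest in pancreas, at -3.49 and -3.85, and higher in adult liver by 1.86 ± 0.38. Pcx, which adipocytes use to make oxaloacetate for fat synthesis, had 4.26 and 4.14 in adult liver, against 2.63 and 2.21 in pancreas, 4.90, 4.81 and 5.46 in WAT and 4.40, 4.31 and 4.71 in BAT. Pcx was higher in adult liver than in pancreas and muscle (1.99, 0.81 and 0.96), and its difference from WAT and BAT did not pass. When the whole liver arrays replaced the adult liver arrays, 19 members differed from pancreas. The share of all genes is not given for that setting, so this count cannot be set against it.

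BAT was compared with WAT. BAT had more Hk2, Ldhb, Fbp2, Pdk2 and Pdk4 and less Eno2, Hk3, Slc2a1 and Pfkfb4. Of 45 members, 17 differed (13 higher and 4 lower), or 37.8%, where 18.9% of all genes did (9.62% higher and 9.33% lower). Under all 18 other settings only 6 of the 17 passed in the same direction, namely Hk2, Ldhb, Pdk4, Eno1, Eno2 and Pgam1. Pdk4 stood at 7.45, 7.04 and 7.19 in BAT, against 2.88, 0.68 and 3.16 in WAT (4.99 ± 0.48, limma adjusted p = 1.53e-07). Ldhb had 3.53, 3.29 and 3.71 in BAT, against 0.72, 0.05 and 0.27 in WAT (3.16 ± 0.34, limma adjusted p = 1.17e-06). Both genes were highest in BAT of all 13 groups. Hk2 had 1.19, 1.56 and 1.26 in BAT, against -0.18, -0.16 and -0.88 in WAT (1.74 ± 0.38).

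Fbp2 reached 3.38, 4.14 and 4.05 in BAT, against 1.14, 0.01 and 1.27 in WAT (3.05 ± 0.24, limma adjusted p = 2.06e-08). Pdk2, Eno1, Pkm, Pgam1, Gpi1, Pgk1, Pdk1, Slc2a4 and Ppp1r3g also rose in BAT, by 1.1 to 2.19 for all but Ppp1r3g, which was not above background in WAT and at least 1.5-fold higher in BAT. Eno2, Hk3, Slc2a1 and Pfkfb4 fell, by 1.07 to 1.71 on the log2 scale. Slc2a4 turned to -0.25 with Agilent's own log ratio. Without the second WAT array Slc2a4 (0.71), Slc2a1 (-0.97) and Pdk1 (0.96) did not pass, nor Pfkfb4 without the third WAT array (-0.85). Pdk1 also did not pass without the third BAT array (0.93), nor Ppp1r3g without the first (1.25) or the second (1.33). Of 19 balances 9 differed, among them Eno2 with Eno1 (-3.19 ± 0.38), Ldhb with Ldha (2.28 ± 0.30) and Hk2 with Hk1 (2.16 ± 0.37).

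The fat arrays carried muscle markers. The 5 markers Ckm, Acta1, Myh4, Tnnt3 and Mylpf had a median of 4.64, 4.48 and 3.48 on the BAT arrays, 5.18, 0.90 and 5.01 on the WAT arrays and 5.91, 6.15 and 6.00 on the muscle arrays. Eno3 stood at 1.97, 1.86 and -0.52 in BAT and at 3.60, -1.23 and 2.48 in WAT, and Pgam2 at 3.13, 3.12 and 0.58 in BAT and at 3.96, -0.18 and 2.77 in WAT. Both genes, and Pygm, were lowest within each fat group on the array with the least of the muscle markers. Fbp2 did not follow this in BAT, where the array with the least muscle signal had 4.05. Slc2a4 (3.72) and Pdk4 (0.68) were lowest in WAT on its array with the least muscle signal, but not so in BAT. Muscle arrays in turn held adipocyte markers at medians of 6.00, 5.16 and 5.51, near those of WAT (5.90, 5.90 and 5.89). The part of mixed tissue in the comparisons of muscle, BAT and WAT was not tested.

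**Figure D5:**
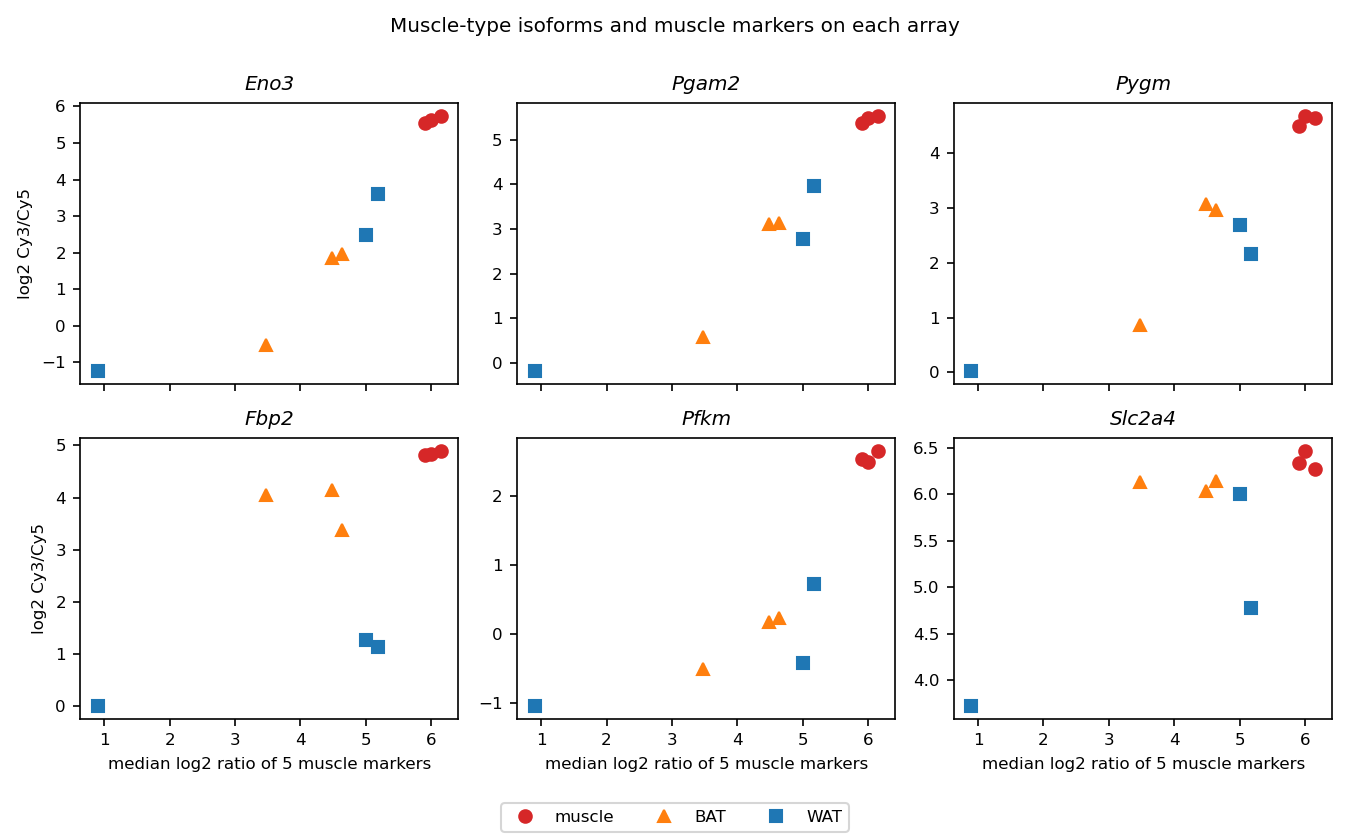
Log2 ratio of 6 genes per array (vertical axis) against the median log2 ratio of 5 muscle markers on the same array (horizontal axis), for muscle (red circles), BAT (orange triangles) and WAT (blue squares). Eno3, Pgam2 and Pygm are lowest on the WAT array at 0.90 and the BAT array at 3.48, while Fbp2 is at 3.38 to 4.14 on all BAT arrays.

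Genes that share the pathway but are not on the list were counted in 6 groups. In EM organoids against adult liver, the pentose phosphate list had 3 higher and 0 lower of 7 (median 0.51), fructose and galactose 1 and 5 of 8 (median -3.04), glycogen partners 2 and 8 of 19 (-0.93), pyruvate and lactate handling 2 and 4 of 12 (-0.70), other hexose genes 2 and 3 of 10 (0.04) and regulators 2 and 4 of 13 (-0.57), beside a median of -0.09 over all genes, of which 14.4% were higher and 17.6% lower. The lactate exporter Slc16a3 rose by 3.65 ± 0.44 and G6pdx, which feeds the pentose phosphate pathway, by 3.10 ± 0.36. The glucagon receptor Gcgr changed by -6.06 ± 0.58. The lactate carrier Slc16a7 was not above background in EM organoids.

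In the DM organoid against EM organoids, fructose and galactose genes had 4 higher and 0 lower of 8 (median 1.21, against 0.04 over all genes, of which 6.25% were higher and 4.02% lower), led by Sord, sorbitol dehydrogenase, at 4.53 ± 0.40. Regulators had 2 higher and 2 lower of 13, with Hif1a, a hypoxia factor that drives glycolytic genes, lower by 1.75 on the log2 scale. No gene of the pentose phosphate or the pyruvate and lactate list differed between the media, and of glycogen partners 1 fell. In duct cells against hepatocytes, fructose and galactose genes had 1 higher and 6 lower of 8, and pyruvate and lactate genes 1 and 5 of 12, where 11.9% of all genes were higher and 11.5% lower. Their medians were -2.15 and -0.84. Gcgr changed by -7.66 ± 0.58 there, and Txnip, an inhibitor of glucose uptake, rose by 2.52 ± 0.29.

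On day 3 after CCl4, at most 1 gene of each list rose and at most 2 fell, where 4.95% of all genes were higher and 2.02% lower. Txnip rose by 1.87 ± 0.29 on day 13 against day 3. In BAT against WAT, pyruvate and lactate genes had 8 higher and 1 lower of 12 (median 1.34, against 0.03 over all genes) and glycogen partners 6 and 0 of 19 (median 0.62), where 9.62% of all genes were higher and 9.33% lower. The glycogen partners were led by the glycogen-targeting subunit Ppp1r3d at 3.84 ± 0.43. These lists were chosen with earlier results of these data known, and their counts describe them only.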

How the data were processed

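The 28 arrays carry sample cRNA in Cy3 and a mouse reference RNA in Cy5. The deposited scanner files hold spot and local background intensity medians, which per the file headers were extracted with Agilent Feature Extraction 10.5.1.1 (8.5.1.1 per the submitters' processing notes). They also hold a log10 ratio that, per the file headers, was background-subtracted and dye-normalized by that software. It served as an alternative, turned to sample over reference. No gene-level normalization by the authors was used.

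Here intensities were corrected with limma 3.58.1 in R 4.3.3 (normexp, offset 50) and normalized by loess within each array, with the 1639 control spots at weight 0. Spots flagged as outliers (0.495%) were left out, which removed Aldoa, Ldha, Ldhb, Pgam1, Pkm or Slc2a1 on some arrays of slides that hold sorted cells and whole liver. Spots of a probe were averaged. Probes were kept where Cy3 stood well over background on 2 or more arrays (31112 of 41174 probes), and the brightest probe on average stood for its gene. Gene names came from the files, updated for 16809 genes, while 4261 kept the file's name. A fit of 13 group means with 15 residual degrees of freedom covered 21070 genes and 19 isoform balances, adjusted together (21089 tests). The Pck2 to Pck1 balance could not be formed.

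For a bound, each array of the lower group was raised to the 5th percentile of the signals of its detected probes, and the number of arrays limits the precision throughout. In reference RNA a weak Cy5 signal makes a ratio less certain. The genes and lists were chosen with earlier results of these data known. Members were named by step where they passed, with isoform partners that did not, and from the further lists at most the 2 largest rises and falls of a comparison. The fit was tested on simulated data. Alternatives covered normalization, background, filters, probe choice, batches, replicates, array weights and the undamaged liver group.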

Additional observations from a re-analysis of the deposited data

How the results depend on the processing

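Setting whole liver in place of adult liver gave 19 members and 8 balances that differed from pancreas, without a share of all genes beside them. It turned Pklr to 0.36 in EM organoids and 1.98 in the DM organoid, and Pdk1 with Pdk2 to -1.17 and -1.63 there, 1.12 against muscle, 0.84 against WAT, 1.93 against BAT and 0.01 against pancreas. It also turned Pdk2 (-0.97) and Eno2 with Eno1 (0.66) against muscle and Eno2 (0.24) against WAT. With whole liver alone as undamaged, Pdk2 on day 3 gave 0.01.

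With Cy3 alone, scaled per array, 15 members differed between Lgr5-sorted cells and whole liver, 11 between day 3 and undamaged liver, 6 between the media and 0 between hepatocytes and whole liver, and 1 balance between day 13 and day 3. Signs turned for Lgr5-sorted cells in Aldoa (-0.34), Gpi1 (-1.58), Ldhb (-0.30), Pck2 (-0.12), Pfkl (-0.37), Pfkm (-0.79), Pkm (-0.36), Slc2a1 (-0.63) and the balances Hk3 with Hk1 (0.95), Pklr with Pkm (0.49) and Slc2a4 with Slc2a1 (0.94). They also turned for Pklr in EM organoids against duct cells (-0.45), Ldha against muscle (0.35), Aldoa (0.26), Pfkl (0.08) and Slc2a4 with Slc2a1 (-0.45) against pancreas, and Ppp1r3g (-0.24) and Pdk1 with Pdk2 (1.19) in BAT against WAT. The median of all genes shifted by between -0.93 and 0.52. The share of higher calls among all genes was 6.54% with Cy3 alone, against 55.3%, for Lgr5-sorted cells; 26.9 against 46.6% for EM organoids over duct cells; 19.7 against 50.8% for BAT over WAT; 69.8 against 45.6%, 63.6 against 44.4% and 27.8 against 43.6% for adult liver over BAT, muscle and pancreas; 18.8 against 53% for hepatocytes; 57 against 71% on day 3 and 50.8 against 37.6% on day 13.

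With Agilent's log ratio 6 members and 1 balance differed between the media, 4 members and 1 balance between day 13 and day 3, 1 member between hepatocytes and whole liver and 5 balances between BAT and WAT, where Slc2a4 (-0.25) and Pklr with Pkm (0.50) turned. Its shares of higher calls were 49.4 against 60.9% for the media, 36.4 against 55.3% for Lgr5-sorted cells, 19.5 against 53% for hepatocytes, 58.8 against 43.6% for pancreas and 60.2 against 50.8% for BAT. The mean of all probes left 1 member for hepatocytes and turned Hk1 against BAT (0.25), Tpi1 in EM organoids against duct cells (-1.11), Pfkl with Pfkp in the DM organoid against adult liver (0.03) and Hk3 with Hk1 in Lgr5-sorted cells (0.43). Only the groups compared gave 0 members for hepatocytes, 8 balances for day 13, 5 for the media and 6 for Lgr5-sorted cells. Array weights, whose estimate did not fully converge, gave 8 balances on day 3 and 8 on day 13, and no minimum change gave 15 members on day 3. Quantiles between arrays leave log ratios as they are by construction.

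Leaving out 1 array gave 3 to 5 members and 1 to 3 balances for day 13 against day 3, 4 to 10 members and 2 to 5 balances for day 3, 3 to 5 balances for the media, 8 to 15 for duct cells against hepatocytes (8 without the second hepatocyte array), 7 to 12 for EM organoids against duct cells (7 without the first EM array), 7 to 12 for Lgr5-sorted cells (7 without the second whole liver array), and 0 to 1 members and 0 to 1 balances for hepatocytes. The DM array could not be left out. The replicate numbers were not shown to pair samples, and the replicate block changed each count by at most 1 (32 members against BAT, 30 against WAT, 30 for the DM organoid against adult liver and 14 balances for duct cells). The cause of these changes was not tested. Few probes were above background on both Lgr5-sorted arrays and on 1 pancreas array, which limits what can be measured there.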
